A study of Homo sapiens with 2 samples.

Results

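The activating transcription factors (ATF) and cAMP response element binding proteins (CREB) were examined as a group of 10 genes: ATF1, ATF2, ATF3, ATF4, ATF5, ATF6, ATF7, CREB1, CREB3 and JDP2. They were chosen by name, with earlier results of these data known, so counts of changed members are not independent of the data. Their probes were all those whose RefSeq accession on the array belonged to these symbols. This gave 14 of the 41000 different probes and 10 of the 17240 genes that could be named. RNA of the SKOV3 clone cl-sh3, in which RUNX2 was knocked down, was compared with RNA of the mock-transfected control clone on 2-colour Agilent whole human genome arrays. SKOV3 is an ovarian adenocarcinoma cell line, and RUNX2 is a runt-domain transcription factor best known as a regulator of bone formation. Both lines were made with the lentiviral pLKO.1-puro vector and selected with puromycin, cl-sh3 with a short hairpin RNA against RUNX2 and the control with a scramble sequence. Each line was 1 clone, so a difference between clones and an effect of the hairpin cannot be told apart here.

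All of these proteins are bZIP factors, which bind DNA as dimers through a basic region and a leucine zipper. CREB1 and ATF1 are closely related activators that bind the cAMP response element and are switched on by phosphorylation. ATF2 and ATF7 are switched on by stress kinases, and ATF3 and JDP2 mainly act as repressors. ATF4 and ATF5 are made when translation is slowed under stress, and ATF6 and CREB3 sit in the endoplasmic reticulum membrane until they are cut free. The arrays measure RNA, not the protein, its phosphorylation or its cleavage.

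The cl-sh3 RNA was labelled with Cy5 in hybridization 1 and with Cy3 in hybridization 2, and the control RNA the other way round. The same 2 RNA extracts went into both, which together count as 1 replicate, so the clones cannot be tested against each other and no p-values are given. Each value is the log2 ratio of cl-sh3 over control, given for hybridization 1 first and hybridization 2 second. Changed means lower by 2-fold or more in both hybridizations, or higher by as much in both. The distance between the 2 values shows technical error only, with a median of 0.22 and a 95th percentile of 0.63 over all 36060 probes kept for signal above background. Of the spots, 77.3% to 93.9% per channel were well above background, and 0 of the member probes were saturated. For RUNX2 itself the brightest probe was at -2.04 and -1.30, which is 3.18-fold lower on average, while its other probes had means of 0.02 and -0.23. All 11 epithelial carcinoma markers looked at, such as the keratins KRT7 and KRT8, were well above background in all 4 signals, and their mean log2 ratios ran from -0.66 for ERBB2, whose other probe was at 0.22, to 0.83 for KRT7. Of the 11, 8 were above 0 in both hybridizations and 1 below, with a median of 0.37. The share of all genes above 0 in both was not counted, and the part of these markers in the results was not tested. The marker lists of fibroblasts, leukocytes and endothelium held 0 changed genes, with means from -0.30 to 0.18. Of these, 4 of 4 fibroblast genes, 4 of 4 leukocyte genes and 2 of 3 endothelial genes were also well above background in all 4 signals. Most spots passed this flag, so it does not show that such cells were present. The median log2 intensity was 8.3 for the fibroblast, 9.9 for the leukocyte and 7.8 for the endothelial genes, against 13.0 for the epithelial markers. The part of these genes in the results was not tested.

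ATF1, ATF3 and ATF4 were the members that fell in cl-sh3, each by between 2.37-fold and 2.68-fold, and the other 7 genes did not reach 2-fold. Of the 14 probes 13 were kept, covering all 10 genes, and 3 of these 13 (23.1%) met the rule for a lower probe. Over all 36060 kept probes 142 were that much lower, or 0.394%. None of the member probes was at least 2-fold higher, against 44 probes or 0.122% of all. With median centring in place of loess normalization these totals were 124 lower and 77 higher, and the members gave the same 3 lower and 0 higher. Counted by gene, with the brightest kept probe standing for each, 3 of 10 members were lower, against 83 of 16153 named genes (0.514%). In RNA of whole cultures, fewer cells with a transcript and less of it per cell cannot be told apart.

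**Figure D1:**
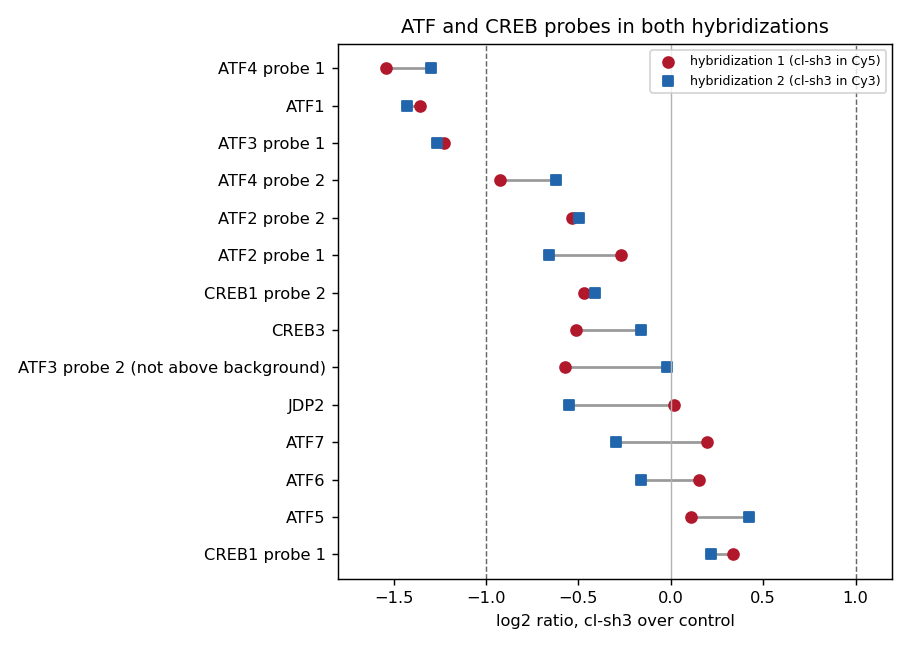
Log2 ratio of cl-sh3 over control (x axis) of each ATF and CREB probe (rows), with a circle for hybridization 1, a square for hybridization 2 and a line joining them. Dashed lines mark 2-fold, and 1 probe each of ATF1, ATF3 and ATF4 lies beyond the lower one in both hybridizations.

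The start sites of the 3 genes that fell are shown with that of CREB1, the closest relative of ATF1, whose brightest probe did not fall. Each sequence is the RefSeq promoter window of GRCh38.p14 from 250 bases before the first start listed to the base before it, read 5′ to 3′ on the strand of the gene. Capitals mark TGACG or its reverse complement, the core of the cAMP response element, and TGATGNAA, a form of the composite site that C/EBP and ATF4 dimers bind. The windows lie on the plus strand at chr22:39520309-39520558 for ATF4, chr1:212565157-212565406 for ATF3, chr12:50764077-50764326 for ATF1 and chr2:207529712-207529961 for CREB1.
ATF4: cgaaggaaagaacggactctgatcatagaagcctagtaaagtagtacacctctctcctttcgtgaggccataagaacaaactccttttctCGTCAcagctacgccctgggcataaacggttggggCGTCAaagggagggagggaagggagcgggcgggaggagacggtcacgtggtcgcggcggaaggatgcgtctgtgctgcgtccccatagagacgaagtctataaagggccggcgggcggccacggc
ATF3: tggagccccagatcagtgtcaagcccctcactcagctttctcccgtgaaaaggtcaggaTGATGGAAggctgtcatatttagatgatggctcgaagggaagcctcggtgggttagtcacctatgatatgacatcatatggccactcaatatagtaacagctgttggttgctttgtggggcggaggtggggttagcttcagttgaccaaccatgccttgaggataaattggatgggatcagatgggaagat
ATF1: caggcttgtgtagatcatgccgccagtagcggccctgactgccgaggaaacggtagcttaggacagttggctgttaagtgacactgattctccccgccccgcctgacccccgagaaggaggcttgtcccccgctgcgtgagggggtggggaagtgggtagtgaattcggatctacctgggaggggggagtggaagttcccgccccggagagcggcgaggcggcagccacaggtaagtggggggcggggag
CREB1: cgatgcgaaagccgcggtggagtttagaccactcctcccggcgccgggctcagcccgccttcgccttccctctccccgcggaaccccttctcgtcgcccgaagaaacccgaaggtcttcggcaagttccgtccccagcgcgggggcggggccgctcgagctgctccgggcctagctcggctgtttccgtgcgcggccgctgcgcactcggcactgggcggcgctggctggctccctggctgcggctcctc

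The ATF4 window held 2 of these cores, the first with its first base at -160 and the second at -125 from the start. The ATF3 window held 1 composite match, TGATGGAA at -191. Neither motif was present in the windows shown for ATF1 and CREB1. The full windows run on for 50 bases past the start, and RefSeq lists 19 of them for 9 members, with none for ATF2. Both strands were searched. The core was in 7 of these 19 windows, while 24.6% of all 35116 promoter windows held it. Among the 7 are overlapping windows of ATF4 that hold the same 2 cores. TGATGNAA was in 2 of them, with TGATGCAA at -16 in a window of JDP2 as the second, and in 3.62% of all windows. The full cAMP response element TGACGTCA, which also counts as a core, was in 0 of the 19 and in 1.85% of all. The runt-domain motifs TGTGGT and TGCGGT were in 0 of the 19, against 13.1% and 7.29% of all windows. A match here is a description of the letters, not a binding site, and no match says only that the letters are not in that window.

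ATF4, the main effector of the integrated stress response, fell in its brighter probe, A_23_P120933 (NM_001675). The normalized signal was 76061 and 70745 in cl-sh3 against 221277 and 174009 in the control. Both cl-sh3 signals lay below both control signals. The share of all kept probes with signals apart in this way was not counted. Here and for the genes below, such a separation is description only. The log2 ratios were -1.54 and -1.30, a mean of -1.42 or 2.68-fold lower, which placed the probe 57th from the lowest of all 36060. Its second probe, A_23_P120941, gave 5778 and 5413 in cl-sh3 and 10972 and 8319 in the control, or -0.93 and -0.62. That probe moved the same way but stayed above the 2-fold line in both hybridizations, 1.71-fold lower on average. With both probes averaged, ATF4 was at -1.23 and -0.96, so the call for ATF4 rests on its brighter probe. RefSeq also names 4 processed copies of this gene, ATF4P1 to ATF4P4, and whether their transcripts bind these probes was not tested.

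ATF1, an activator of cAMP-responsive genes, was measured by 1 probe, A_23_P105646 (NM_005171). Its normalized signal was 1362 and 1360 in cl-sh3 and 3483 and 3653 in the control. The cl-sh3 signals were nearly equal in both dyes and lay well under the control's. The log2 ratios of -1.35 and -1.43 average -1.39, or 2.62-fold lower, and rank 66th from the lowest. Their distance of 0.07 is small: only 15.0% of kept probes of similar brightness had a distance that small or smaller. RefSeq names 1 copy of this gene, ATF1P1, and binding of its transcript was not tested.

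ATF3, a stress-induced repressor whose gene is itself switched on by ATF4 under stress, fell in the brighter of its probes, A_23_P34915 (NM_001040619). The normalized signal was 1001 and 933 in cl-sh3 against 2345 and 2246 in the control. The groups of signals did not overlap. The log2 ratios were -1.23 and -1.27, a mean of -1.25 or 2.37-fold lower, with a distance of only 0.04 between them and rank 100 from the lowest. On the second probe, A_24_P33895, the scanner read 272 and 109 for cl-sh3 over local backgrounds of 172 and 41, and 129 and 242 for the control over 45 and 138. Each RNA was well above background only in its Cy3 labelling, so this probe was left out of the counts. Its log2 ratios were -0.57 and -0.02.

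**Figure D2:**
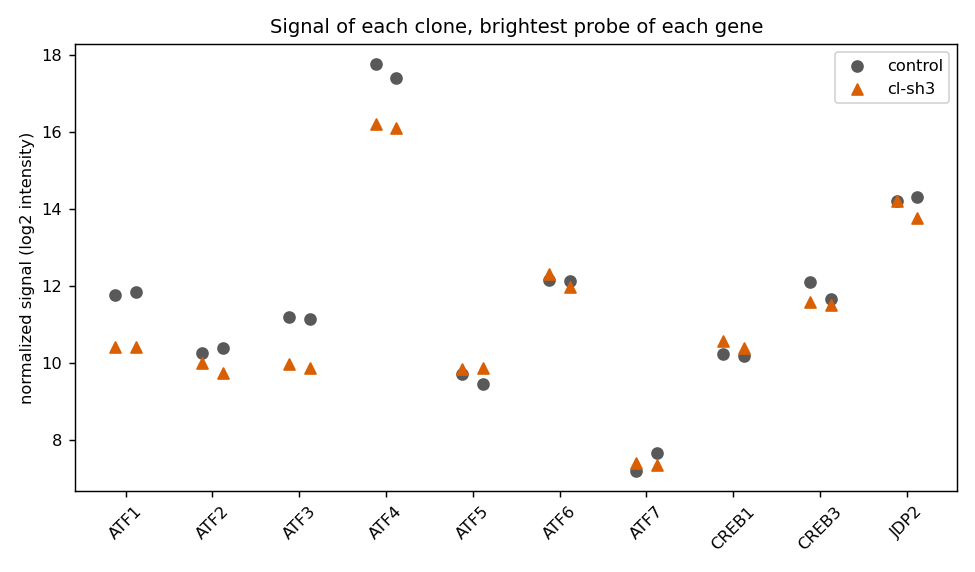
Normalized log2 signal (y axis) of the control (grey circles) and cl-sh3 (orange triangles) for the brightest probe of each gene (x axis), with hybridization 1 on the left and hybridization 2 on the right of each pair. Both cl-sh3 signals lie below both control signals for ATF1, ATF3 and ATF4 by more than 2-fold, and heights should not be compared between genes because probes differ in how well they bind.

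CREB1, the founding member of the CREB group, had a pair of probes with opposite signs under the same accession (NM_134442). The brighter, A_23_P79231, gave 1524 and 1356 in cl-sh3 and 1206 and 1168 in the control, or 0.34 and 0.22. The dimmer, A_24_P105721, gave 403 and 392 in cl-sh3 and 557 and 522 in the control, or -0.47 and -0.41. Each probe repeated its own direction in both hybridizations, with distances of 0.12 and 0.06, so the disagreement is between probes rather than between hybridizations. Averaged over both, CREB1 was at -0.07 and -0.10. No direction is given for this gene.

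ATF2, a stress-kinase substrate that pairs with JUN, was lower in both hybridizations with both probes but by less than 2-fold. Its brighter probe, A_24_P246467 (NM_001880), was at -0.27 and -0.66 from signals of 1022 and 858 in cl-sh3 and 1233 and 1354 in the control. The other, A_24_P128145, was at -0.54 and -0.50 from signals of 447 and 450 against 648 and 635. The signals did not overlap for either probe, a separation whose share over all kept probes was not counted. The means of -0.46 and -0.52 were close to each other. ATF7, the closest relative of ATF2, was at 0.20 and -0.30 (A_23_P361495, NM_006856), with normalized signals of 169 and 165 in cl-sh3 and 147 and 202 in the control. The control was not well above background in hybridization 2, and the ratio changed sign between hybridizations, so no direction is given for ATF7.

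ATF5, which like ATF4 is induced by stress at the level of translation, was above 0 in both hybridizations, at 0.11 and 0.42 (A_23_P119337, NM_012068). Its signals were 913 and 943 in cl-sh3 and 847 and 703 in the control. They did not overlap, yet the difference was well short of 2-fold. JDP2, a repressor related to ATF3, had the largest distance of the kept member probes, 0.57, from 0.02 and -0.55 (A_23_P117582, NM_130469). The signals of 19012 and 13833 in cl-sh3 overlapped those of 18795 and 20274 in the control. ATF6, a sensor of unfolded proteins, was at 0.15 and -0.16 (A_23_P62907, NM_007348), with signals of 5104 and 4041 in cl-sh3 and 4600 and 4526 in the control that also overlapped. CREB3, a membrane-bound factor of the secretory pathway, was at -0.51 and -0.16 (A_23_P423389, NM_006368). Its signals were 3091 and 2917 in cl-sh3 and 4405 and 3256 in the control, lower in both hybridizations without overlap but not by 2-fold.

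The 7 genes that did not reach 2-fold had mean log2 ratios from -0.46 for ATF2 to 0.28 for CREB1, with a median of -0.05, while the median of all kept probes was 0.01. Over all 10 members the median was -0.30. It was -0.13 in hybridization 1 and -0.43 in hybridization 2, so this summary moved with the hybridization more than the 3 fallen genes did. Of the 10 genes, 5 were below 0 in both hybridizations (ATF1, ATF2, ATF3, ATF4 and CREB3), 2 were above 0 in both (ATF5 and CREB1, by their brightest probes), and ATF6, ATF7 and JDP2 changed sign. The shares of all kept probes with the same sign in both hybridizations were not counted, so these counts have no comparison. Over all kept probes the 5th and 95th percentiles of the mean were -0.54 and 0.43.

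**Figure D3:**
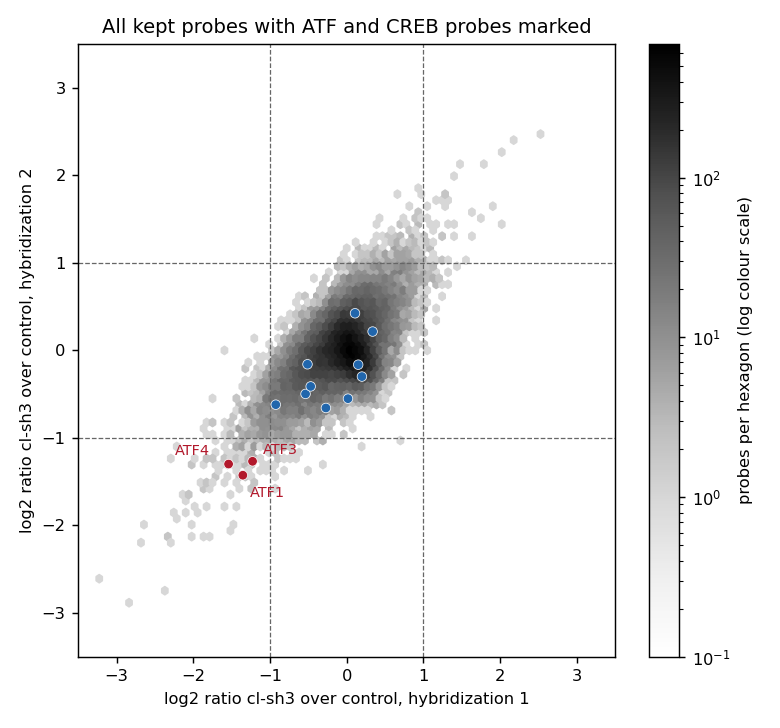
Log2 ratio of cl-sh3 over control in hybridization 1 (x axis) and hybridization 2 (y axis) for all 36060 kept probes, shown as hexagons shaded by their number on a log scale, with the kept ATF and CREB probes as points (red where at least 2-fold lower in both, blue otherwise). Dashed lines mark 2-fold, and ATF1, ATF3 and ATF4 lie in the lower left corner among 142 probes.

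Members that fell were set against relatives of similar function to see how far the change was particular to single genes. ATF1 lay below CREB1 by a log2 difference of -1.69 in hybridization 1 and -1.64 in hybridization 2, taking the brighter CREB1 probe. Against the dimmer CREB1 probe the difference was -0.89 and -1.01, so whether it passed 2-fold in both hybridizations depended on the probe. ATF4 lay below ATF5 by -1.65 and -1.72 with its brighter probe and by -1.03 and -1.04 with its other probe, past 2-fold each time. ATF3 lay below JDP2 by -1.24 and -0.72, past 2-fold in hybridization 1 only, and the JDP2 ratio itself moved by 0.57 between the hybridizations. These are differences within 1 pair of clones, with no test.

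Further relatives of the family held 0 changed genes among 9 kept of 11 listed, with a median of -0.02. By brightest probe, 0.514% of all named genes were lower and 0.136% higher, the shares to set beside this list and those that follow. CREM, whose gene makes both activators and the cAMP-inducible repressor ICER, was the lowest at -0.71 and -0.22, and the means of its 5 probes ran from -0.84 to -0.01. CREB3L4 was the highest at 0.09 and 0.23. Coactivators, kinases and proteases that act on the family numbered 21 kept of 22, with 1 lower, 0 higher and a median of -0.01. The 1 lower gene was MAPK9, the kinase JNK2 that phosphorylates ATF2 and JUN, at -1.90 and -1.58. PRKAR1A, a regulatory subunit of protein kinase A, was at -1.01 and -0.18 with its brightest probe. Its other probes were at -1.34 and -0.67 and at -1.14 and -0.998, so no probe met the rule in both hybridizations. By brightest probe, 8 of the 21 were below 0 in both hybridizations and 6 above. CRTC1, a coactivator of CREB that is regulated by calcium and cAMP, was the highest at 0.87 and 1.12, past 2-fold in hybridization 2 only. Its other probe, not kept because of low signal, was at 0.07 and -0.02.

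Partners that dimerize with ATF factors or share their sites numbered 15 kept of 16, with 2 lower, 0 higher and a median of -0.29. Among all named genes 0.514% were lower. DDIT3, also called CHOP, a stress-induced partner of C/EBP and ATF4, was at -2.19 and -1.94. CEBPB, a C/EBP factor of inflammation and differentiation, was at -1.44 and -1.24 with its brighter probe, but at -0.05 and -0.07 with its other probe. Both DDIT3 and CEBPB are also induced by ATF4 and count again in the list that follows. The kept JUN and FOS genes were among those not changed.

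The list of genes known to be induced by ATF4 was the one with the most changed genes. Of its 28 kept genes 10 were at least 2-fold lower, against 0.514% of all named genes. In this list 0 were higher and 24 were below 0 in both hybridizations, with a median of -0.93. The share of all genes below 0 in both was not counted. The number lower was 12 when any kept probe of a gene could meet the rule and 7 when every kept probe had to. This list was drawn up with results of the same hybridizations known and is not independent of them. TRIB3, a pseudokinase that binds ATF4, was at -3.27 and -2.62, and its other probe at -1.08 and -0.89. ASNS, which makes asparagine, was at -2.06 and -2.10, and PCK2, the mitochondrial phosphoenolpyruvate carboxykinase, at -2.27 and -1.85 with its brighter probe and -1.06 and -0.53 with its other. NUPR1, a stress-induced chromatin protein, was at -1.49 and -1.97, and CTH, which makes cysteine, at -1.75 and -1.53. ALDH18A1, an enzyme of proline synthesis named after its value was seen, was the only gene of this list above 0 in both, at 0.27 and 0.37.

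Genes known to respond to ATF6 and to CREB were counted against the same shares of all named genes, 0.514% lower and 0.136% higher. Of 16 kept ATF6 genes, mostly chaperones of the endoplasmic reticulum, 1 was lower and 0 higher, and the median was 0.04. The lower one was HERPUD1, which acts in degradation of misfolded proteins, at -1.46 and -1.09. HSPA5, a chaperone, came close to the rule at -1.04 and -0.98 with its brighter probe. Its other probe was at 0.01 and -0.31. By brightest probe, 5 of the 16 were below 0 in both hybridizations and 7 above. Of 19 kept CREB genes, 1 was lower and 0 higher, and the median was -0.03. The lower one was NFIL3, a bZIP repressor, at -1.22 and -1.56. Genes of these lists and of the ATF4 list do not act through 1 factor alone, so the counts describe lists and not the activity of a factor.

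**Figure D4:**
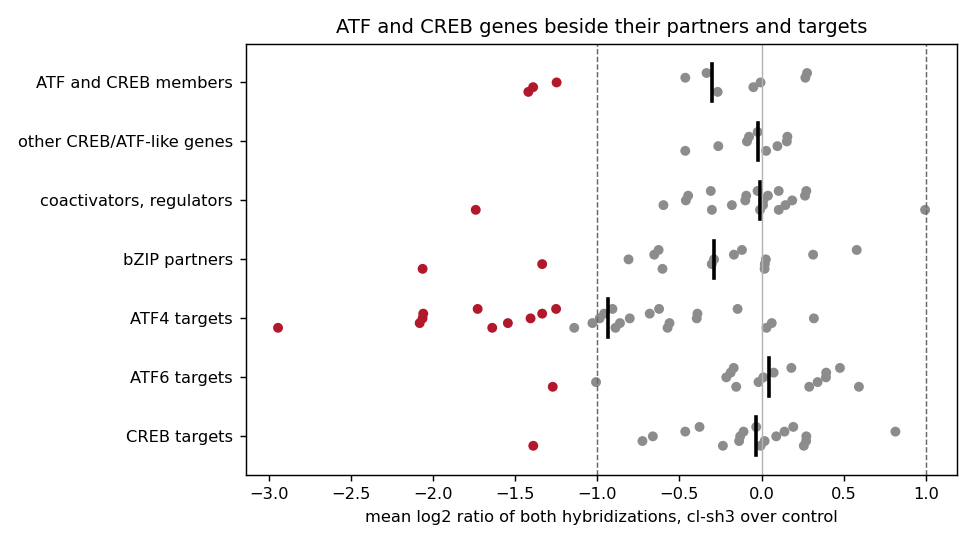
Mean log2 ratio of cl-sh3 over control over both hybridizations (x axis) for each kept gene, by its brightest probe, in the members and in 6 lists of relatives, regulators, partners and known target genes (rows), with the median of each list as a vertical bar. Red points met the 2-fold rule, 10 of them in the ATF4 list, whose median of -0.93 is the lowest shown.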

How the data were processed

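Labelled RNA of both clones was compared in 2 dye-reversed hybridizations, which count as 1 replicate. The authors deposited each spot's scanner intensity, local background and flags, a log10 ratio of the red to the green channel made by the scanner software, and a second table of log10 ratios per hybridization. These log10 ratios were used as alternatives. The labels' processing notes name Feature Extraction 8.5.1.1, while the file headers name 10.5.1.1.

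The median pixel intensities were background-corrected by normexp with an offset of 50 (limma 3.58.1, R 4.3.3). Control spots were then dropped, spots carrying outlier flags were left out, and loess normalization was run within arrays. Values of repeated spots were averaged per probe, and the sign was turned so that log2 ratios give cl-sh3 over control. A probe needed 1 RNA well above background, flagged so by the software on at least 50% of its spots, in both hybridizations. Among 264 probes with repeated spots, the median SD of log2 ratios over spots was 0.117 and 0.116. The number of arrays limits the precision. The calling steps were run on simulated data whose changes were larger than those of the members. Calls close to 2-fold were therefore not checked by the simulation.

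Accessions were named through the RefSeq table of GRCh38.p14, except RUNX2, named through the study's own gene list. Array coordinates were not used. A gene was represented by its brightest kept probe. The text names every member probe, RUNX2, list genes past 2-fold in both hybridizations (up to 6 per list) and the extremes of the lists of relatives and of regulators. HSPA5 and PRKAR1A are named besides, picked after their values were seen because probes of theirs lay near 2-fold. The members, lists and rules were chosen with earlier results of these data known. Some list genes, among them ATF1, ATF4, MAPK9, NFIL3, HERPUD1 and CEBPB, are in a list that the study drew from the same hybridizations. Alternatives covered background correction, normalization, flags, detection filters, the deposited ratios, each hybridization alone, the 2-fold rule and averaging of probes. Python 3.11.15, numpy 2.4.6, pandas 2.3.3 and matplotlib 3.10.9 were used for counts and plots.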

Additional observations from a re-analysis of the deposited data

How the results depend on the processing

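The counts of 3 lower and 0 higher member probes were obtained under all 12 alternatives that were run on them. Several of the 12 could add a call but not remove one. Each hybridization alone and the 2-fold rule on the mean are looser than the main rule, and dropping the detection filter only adds probes. Keeping flagged spots could hardly act, as no member probe carried an outlier flag. By gene the count was 3 under each of the 12. It was 2 when all probes of a gene were averaged, where ATF4 missed 2-fold in hybridization 2. Mean log2 ratios over both hybridizations ran from -1.42 to -1.34 for ATF1, from -1.38 to -1.19 for ATF3 and from -1.45 to -1.18 for the brighter ATF4 probe, whose smallest change came with median centring. The sign for ATF6 changed between alternatives (-0.05 to 0.04). The median of the members lay between -0.43 and -0.13, the values of hybridization 2 alone and hybridization 1 alone.

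Over all kept probes, 142 were lower and 44 higher. Median centring gave 77 higher, the software's log ratio 253 lower and 103 higher, the authors' deposited values 251 lower and 103 higher, and the 2-fold rule on the mean 250 lower and 93 higher. A single hybridization gave 196 to 506 lower and 88 to 219 higher. The cause was not tested, apart from the looser rule that a single hybridization or a mean sets. Among choices of probe made after seeing the data, the partner list held 1 lower gene in place of 2 when every kept probe, or the mean of them, had to pass, since the CEBPB probes differ. No paired analysis was possible because the 2 hybridizations hold the same pair of RNAs and form 1 group. Aquantile normalization leaves ratios within an array as they are, so it could not move any of these values. Signal over background limits ATF7 and the dimmer ATF3 probe.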

Other observations

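Promoter letters were also counted over the gene lists, as a description with no test. The target lists come from general knowledge, which can itself rest on such motifs, so a high share in them may be partly built in. TGATGNAA, the composite form bound by C/EBP and ATF4 dimers, was in a window of 6 of the 24 genes induced by ATF4 that have a RefSeq promoter window (25.0%): ASNS, CHAC1, SLC3A2, SLC7A1, GARS1 and FGF21. Over all 27305 genes with a window the share was 4.46%. The full cAMP response element TGACGTCA was in a window of 4 of 17 CREB genes (23.5%), DUSP1, CCNA2, CREM and AREG, against 2.25% of all genes. It was in 0 of the 24 ATF4 genes, and the composite form was in 0 of the 17 CREB genes. Neither motif was particular to its target list. The further relatives held each of them in 2 of 10 genes (20%). The composite form was also in 2 of 9 members (22.2%), and the full element in 2 of 14 partners (14.3%). The target genes named here were picked for their motif and not by their array values. Among those with the composite form, ASNS was at a mean log2 ratio of -2.08, CHAC1 at -0.96, GARS1 at -0.91, SLC7A1 at -0.40 with its brighter probe and 0.06 with its other, and FGF21 at 0.03.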
